A study of Mus musculus with 9 samples.

Results

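The genes described here are the machinery of mitosis and of its spindle checkpoint, a set of 40 genes followed across 9 Affymetrix mouse arrays, 3 in each of 3 groups of cultured stem cells. A probe set is a group of short probes for 1 transcript, and a member was represented by the brightest probe set, by mean, that the platform annotation assigned to its symbol alone. In this way 39 of the 40 genes were measured, out of 18193 genes in all, and Ccnb1 had no probe set assigned to it in the annotation used. Glioma stem cells were grown from optic gliomas in the optic nerve of mice aged 3 months with the genotype Nf1+/-GFAP CKO. Nf1-null neural stem cells (NSC) were cells of the third ventricle, from the brains of Nf1flox/flox pups at postnatal day 1, that had received a Cre virus. Wild-type NSC were cells of the same origin and genotype that had received a control LacZ virus. All mice were of the C57BL/6 strain, and all cells grew in dishes of low attachment in medium with FGF and EGF, growth factors that drive division, each at 20 ng/ml. NSC came from 3 independent cultures per the design text, but no source used here says if each glioma array had its own tumour, and its p-values may reflect technical spread alone. The tumour cells differ from both NSC groups in origin, age, tissue, virus and genotype together, and these cannot be told apart.

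Signals are linear intensities scaled by array, and differences are given on the log2(signal + 1) scale with moderated standard errors (SE). "Passed" means a Benjamini-Hochberg adjusted p under 0.05 over all 18193 genes in limma. Nf1, the gene deleted by Cre, had signals of 623, 600.1 and 549 in glioma stem cells and 430.3, 646 and 577 in Nf1-null NSC, against 1139.5, 919.5 and 999.9 in wild-type NSC, so every array of both groups lay below every wild-type NSC array. Its adjusted p in limma was 0.0441 for glioma stem cells and 0.123 for Nf1-null NSC, each against wild-type NSC, and whether the probe set lies in the deleted part of the gene was not examined. Markers of neural stem cells were read from 12 genes, of which Sox2 lay between 28137 and 49794 on the 9 arrays. Their summed signal lay between 234638 and 280167 in glioma stem cells, between 238892 and 276304 in Nf1-null NSC and between 227804 and 307443 in wild-type NSC. Single markers differed: against wild-type NSC 8 of 12 were negative in glioma stem cells, where 3 fell and 1 rose, and 9 of 12 were negative in Nf1-null NSC, where none passed in limma and 0 had an unadjusted p under 0.05. Markers of microglia (10 genes), endothelium (8) and fibroblasts (6) summed to at most 1465, 1640.3 and 758.5 on any array. Summed signals of 3 other marker lists set glioma stem cells and Nf1-null NSC apart from wild-type NSC, though not always from each other. That of 8 astrocyte markers lay between 98573 and 129000 in glioma stem cells, between 108343 and 188704 in Nf1-null NSC and between 223370 and 276836 in wild-type NSC. That of 8 neuron markers lay between 37916 and 45717 in glioma stem cells, between 45583 and 47302 in Nf1-null NSC and between 52933 and 60889 in wild-type NSC. That of 9 markers of oligodendrocytes and their precursors lay between 134311 and 182397 in glioma stem cells, between 86038 and 104584 in Nf1-null NSC and between 110783 and 118089 in wild-type NSC. Single neuron markers were split: against wild-type NSC 4 of 8 were positive in glioma stem cells and 4 negative, with a median log2 difference of 0.12. In Nf1-null NSC 2 of the 8 were positive and 6 negative. Of the 9 oligodendrocyte markers 6 were positive and 3 negative in glioma stem cells, and 3 and 6 in Nf1-null NSC. None of the 9 passed in limma in either comparison, where 9.06% and 0% of all genes did. Of the 8 astrocyte markers 7 were negative in glioma stem cells and 8 in Nf1-null NSC. RNA quality was read from Actb, whose 3' probe set over its 5' probe set gave ratios between 1.73 and 1.85 in glioma stem cells, between 1.49 and 1.67 in Nf1-null NSC and between 1.87 and 1.88 in wild-type NSC. For Gapdh this ratio lay between 0.95 and 1.14 in glioma stem cells and between 0.93 and 0.96 in Nf1-null NSC. In wild-type NSC the Gapdh ratio lay between 0.95 and 1.14, so the groups overlapped there. The part of any of these in the results was not tested.

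A cell enters mitosis when cyclin B and Cdk1 become active, condenses its chromosomes, and attaches them through kinetochores to the spindle. The spindle checkpoint holds the cell until every kinetochore is attached. The anaphase-promoting complex with Cdc20 then marks cyclin B and securin for destruction, and the cell divides. Most of these genes are transcribed only late in the cell cycle, and their transcripts are widely used as markers of dividing cells, among them Mki67, the gene of the Ki-67 antigen. In whole cultures a larger share of dividing cells and more transcript in each of them cannot be told apart.

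The 39 genes were high and low on the same arrays. On glioma stem cell arrays 1, 2 and 3 their median signal stood 2.63, 1.94 and 2.05 above the wild-type NSC mean on the log2 scale. On Nf1-null NSC arrays it stood 2.42, 1.54 and 1.30 above that mean, and on the wild-type NSC arrays themselves at 1.23, -1.10 and -0.19. Every median of the mutant groups thus lay above every wild-type NSC median, and wild-type NSC array 1 came close to the lowest Nf1-null array while wild-type NSC array 2 lay far below. Array 1 was the highest of its group for 38 of 39 members in glioma stem cells, for 38 in Nf1-null NSC and for 39 in wild-type NSC. Wild-type NSC array 2 was the lowest of all 9 arrays for 37 members. The median spread of a member was 0.35 in glioma stem cells, 0.57 in Nf1-null NSC and 1.24 in wild-type NSC (log2 SD, n = 3 each), against 0.18, 0.23 and 0.18 over the 9097 brighter genes. For 38 of 39 members the wild-type NSC had the widest spread of the 3 groups.

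**Figure D1:**
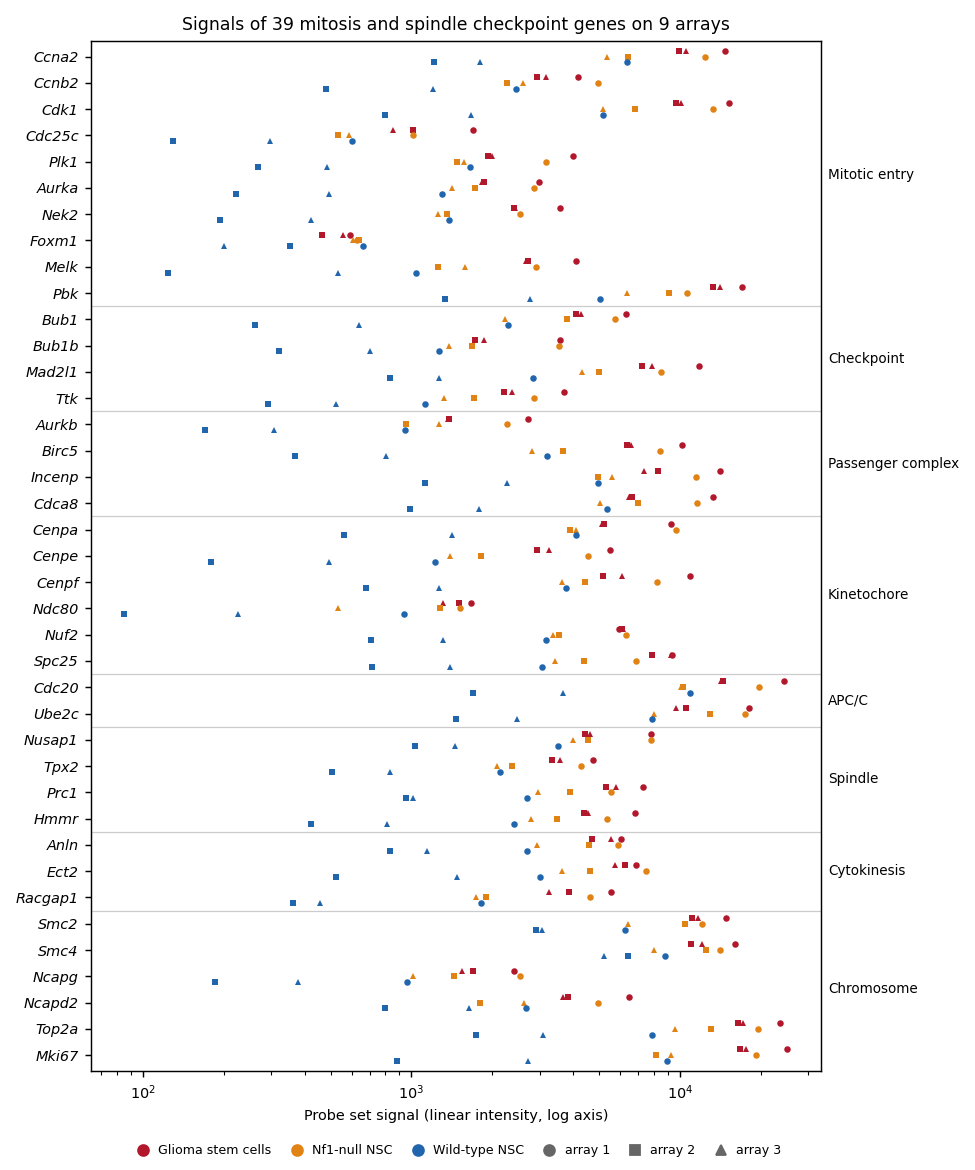
Signal of each of the 39 measured genes (rows, by role) on each of the 9 arrays, on a log axis; colour gives the group and marker shape the array number. For 38 of 39 genes all 3 glioma stem cell arrays lie above all 3 wild-type NSC arrays, and the wild-type NSC points are the most spread out.

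Promoters of such genes are known for elements of late cell cycle transcription, shown here because the members were high and low together. The cell cycle genes homology region (CHR) is a short element bound by the DREAM complex, which represses in resting cells, and by the complex of B-Myb and FoxM1, which activates before mitosis. CCAAT boxes, bound by NF-Y, often lie upstream of it. RefSeq windows from 250 bases before to 50 bases after the annotated start (GRCm38.p6) were at hand for 31 of the 39 members. The 8 others were Ccna2, Cdc25c, Foxm1, Pbk, Aurkb, Incenp, Tpx2 and Smc4. In the sequences below, read 5′ to 3′ on the gene's strand, capitals mark TTTGAA, the common CHR, and CCAAT, each on either strand (TTCAAA and ATTGG). Cdk1, Ccnb2, Top2a and Cdc20 hold both motifs, and Mad2l1, a member with neither motif in its window, stands beside them.
Cdk1 (chr10:69352863-69353162, minus strand): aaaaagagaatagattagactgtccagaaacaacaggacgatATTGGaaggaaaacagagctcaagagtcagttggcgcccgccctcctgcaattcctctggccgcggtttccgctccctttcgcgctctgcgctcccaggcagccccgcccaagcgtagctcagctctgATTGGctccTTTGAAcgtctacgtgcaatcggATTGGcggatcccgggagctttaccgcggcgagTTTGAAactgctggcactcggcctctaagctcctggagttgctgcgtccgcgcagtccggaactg
Ccnb2 (chr9:70421505-70421804, minus strand): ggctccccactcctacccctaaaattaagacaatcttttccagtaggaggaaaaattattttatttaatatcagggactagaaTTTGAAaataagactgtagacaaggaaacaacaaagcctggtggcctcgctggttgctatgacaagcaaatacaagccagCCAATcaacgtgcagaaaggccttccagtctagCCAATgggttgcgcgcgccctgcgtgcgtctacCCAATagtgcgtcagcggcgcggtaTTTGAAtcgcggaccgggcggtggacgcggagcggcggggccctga
Top2a (chr11:99024140-99024439, minus strand): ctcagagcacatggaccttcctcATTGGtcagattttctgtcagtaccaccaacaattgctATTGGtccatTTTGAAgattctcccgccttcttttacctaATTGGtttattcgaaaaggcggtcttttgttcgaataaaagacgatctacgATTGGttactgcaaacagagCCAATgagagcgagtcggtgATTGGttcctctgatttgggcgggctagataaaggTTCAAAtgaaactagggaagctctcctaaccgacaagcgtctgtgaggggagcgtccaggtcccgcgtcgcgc
Cdc20 (chr4:118437294-118437593, minus strand): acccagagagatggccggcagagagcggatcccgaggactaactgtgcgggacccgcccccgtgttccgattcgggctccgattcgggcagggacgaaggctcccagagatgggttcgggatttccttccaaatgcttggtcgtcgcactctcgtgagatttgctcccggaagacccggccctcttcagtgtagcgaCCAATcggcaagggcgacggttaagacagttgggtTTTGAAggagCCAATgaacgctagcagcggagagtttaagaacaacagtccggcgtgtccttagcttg
Mad2l1 (chr6:66534971-66535270, plus strand): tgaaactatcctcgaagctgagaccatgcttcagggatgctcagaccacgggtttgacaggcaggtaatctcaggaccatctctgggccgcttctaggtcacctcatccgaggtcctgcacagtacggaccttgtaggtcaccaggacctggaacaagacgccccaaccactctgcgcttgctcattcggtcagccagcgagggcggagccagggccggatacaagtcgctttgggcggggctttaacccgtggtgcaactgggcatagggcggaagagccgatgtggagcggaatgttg

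TTTGAA on either strand was in the window of 23 of 31 members (74.2%), against 5466 of all 27025 genes with a window (20.2%). Between 50 bases before and 49 after the start it was in 21 of 31 members (67.7%), against 5.72% of all genes. CCAAT on either strand was in 24 of 31 members (77.4%), against 41.1% of all genes. Both motifs occurred together in 21 of 31 members (67.7%), against 8.97% of all genes. Of the 33 TTTGAA matches in the members' windows, 1 overlapped a CCAAT match. Ect2 and Prc1 had 2 windows each, and a gene counted once if any window held the motif. In Cdk1 the downstream TTTGAA began 15 bases before the start, in Cdc20 18 bases before it, and in Ccnb2 4 bases after it. Birc5, Mad2l1, Melk, Nuf2 and Nusap1 held neither motif. The median log2 difference of glioma stem cells from wild-type NSC was 2.14 for the 23 members with TTTGAA and 2.66 for the 8 without. A match describes these letters only and is no measure of binding.

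**Figure D2:**
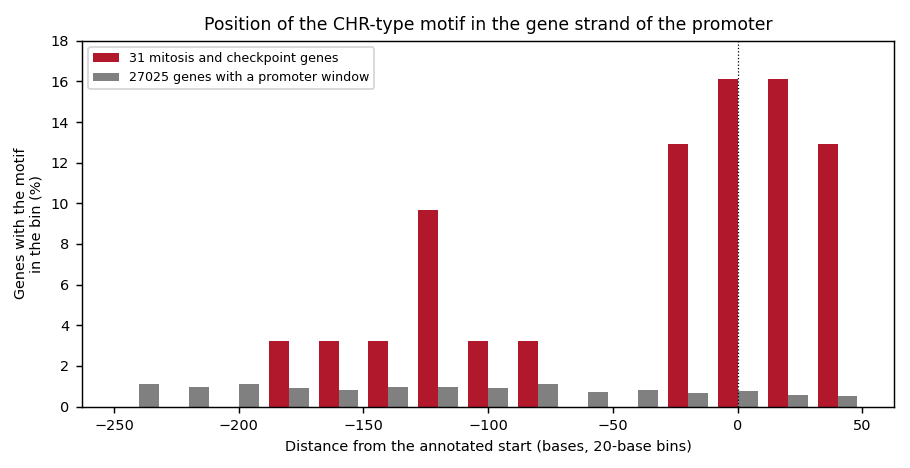
Share of genes whose promoter has TTTGAA on the gene's strand, by distance of its first base from the annotated start in bins of 20 bases, for 31 members and for all 27025 genes with a window. From 30 bases before the start onward each bin holds 12.9% to 16.1% of members and 0.52% to 0.74% of all genes.

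Glioma stem cells were compared with wild-type NSC to see how the tumour-derived cells differ from stem cells that kept Nf1. All 39 mitosis genes had a positive difference, where 43.9% of all genes did. Their median was 4.52-fold (log2 2.18), against a median of 0.94-fold over all genes. In the limma fit 13 of 39 rose, 0 fell and 26 did not pass. Of all genes 9.06% passed in either direction, 3.46% rose and 5.6% fell. At an unadjusted p under 0.05, 38 of 39 members were higher, as were 10.5% of all genes. The arrays of the 2 groups did not overlap for 38 of 39 members, against 13.9% of all genes higher without overlap. Spread between replicates falls as signal rises in these data. With that trend in the variance model 37 of 39 members rose, against 6.16% of all genes. The members' median log2 SD in wild-type NSC, 1.24, was above the 0.18 of the brighter genes. Whether the trend sets their spread too low was not tested. Among the brighter genes alone 36 of 37 rose, against 11.4%. Brighter means at or above the median of all genes in mean log2 signal over the 9 arrays. Members can thus enter this set through the groups where they are high, and how far this moved its counts was not tested. A replicate block treats same-numbered arrays as matched, although these cells came from different mice and were not read as pairs. With it 37 of 37 rose among the brighter genes (14.4%) and 38 of 39 with the trend (7.93%). The count of 13 changed when 1 array was left out, and the share of all genes that rose mostly fell with it. It was 0 without glioma stem cell array 2 (0.385% of all genes rose), glioma stem cell array 3 (0.473%), wild-type NSC array 2 (0.495%) or wild-type NSC array 3 (1.08%). It was 3 without glioma stem cell array 1 (3.84%), and 7, 5 and 8 without Nf1-null NSC array 1 (2.73%), 2 (3.28%) and 3 (3.04%). It was 34 without wild-type NSC array 1 (2.36%). With the trend the count lay between 14 and 38 under the same omissions, where 2.84% to 6.58% of all genes rose, an alternative chosen after seeing the data.

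Nf1-null NSC were set against wild-type NSC to see what differs after Cre removes Nf1 from the same kind of cell. All 39 members again had a positive difference (44.5% of all genes did), with a median of 3.37-fold (log2 1.75). None of the 39 passed in the limma fit over all genes, where 0% of genes did. Their adjusted p ran from 0.150 to 0.428, and 36 of 39 had an unadjusted p under 0.05, as 7.42% of all genes did in that direction. The arrays did not overlap for 20 of 39 members, against 9.75% of all genes, and in the other 19 wild-type NSC array 1 reached the level of Nf1-null NSC array 2 or 3. Same-numbered arrays of the NSC groups deviated together, with correlations of 0.63, 0.24 and 0.59 across brighter genes other than the members, so they were also read as pairs. The value for pair 2 lay below the 0.29 of arrays numbered 1 of glioma stem cells and Nf1-null NSC, which were not read as a pair. Arrays with different numbers were not correlated for reference. Within pairs numbered 1, 2 and 3 the members' median difference was 2.21-fold, 6.05-fold and 2.81-fold. Of 39 members 38 were higher in Nf1-null NSC in every pair, against 20.9% of all genes. Foxm1 was the exception, and only in pair 1 (log2 difference -0.08).

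With the replicate number as a block and the variance trend, 36 of 39 members rose in Nf1-null NSC, against 3.25% of all genes, and all but Cdc25c (adjusted p = 0.0564), Foxm1 (0.223) and Ndc80 (0.0956) were among them. Fitted in the 6 NSC arrays alone, a choice made after seeing the data, the same model also gave 36 of 39 (3.25% of genes rose). Among the brighter genes 36 of 37 rose with the block (6.88%) and 1 without it (2.29%). Members can enter that set through the groups where they are high, here as above. The block without the trend gave 0 of 39, where 0 of 18193 genes passed. The trend without the block gave 1, Mad2l1 (adjusted p = 0.0460 in limma, where 1.06% of genes rose). Whether the members, or any other genes, are called here thus depends on how the spread is modelled, and the members' wide wild-type NSC spread applies here too.

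**Figure D3:**
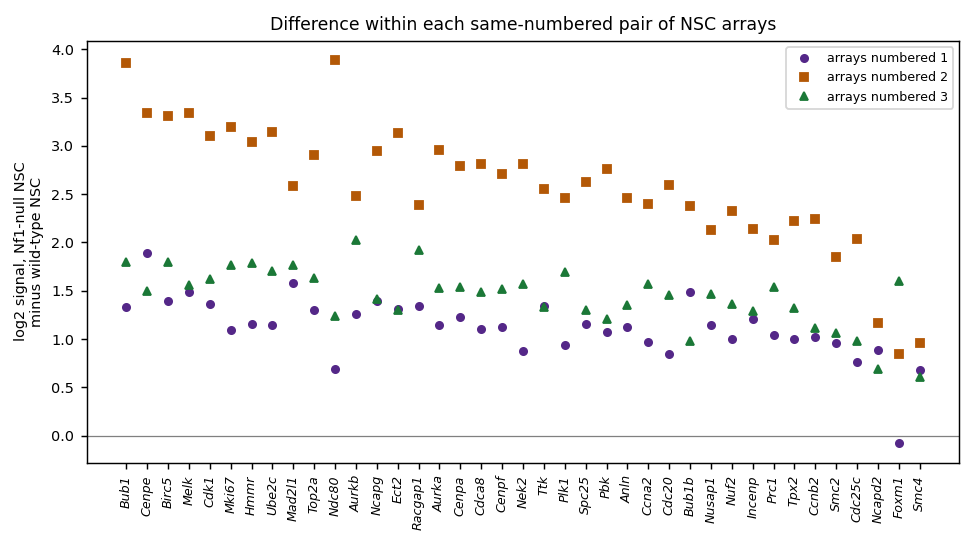
Difference in log2 signal, Nf1-null NSC minus wild-type NSC, within each pair of same-numbered arrays, for the 39 genes ordered by their mean difference. Pair 2 gives the largest difference for 38 of 39 genes, and only Foxm1 in pair 1 falls below 0.

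Glioma stem cells were compared with Nf1-null NSC, the stem cells in which Cre had removed Nf1, and none of the mitosis genes passed. Although 38 of 39 were positive (46.8% of all genes were), the median was 1.39-fold (log2 0.47), and 0 of 39 passed, where 1.75% of all genes did and 0.671% were higher. No member had an unadjusted p under 0.05, where 7.12% of all genes did as higher. None passed with the variance trend (1.71% of genes were higher), among the brighter genes (2.9%), or with the replicate block, either among the brighter genes (4.96%) or with the trend (2.81%). The arrays did not overlap for 2 of 39, Pbk and Spc25, against 9.24% of all genes. This comparison shares its arrays with the 2 above, which share the wild-type NSC arrays with each other. The intervals are wide: for Top2a the 95% interval of the difference ran from -0.76 to 1.72, and for Ube2c from -1.43 to 1.44, both spanning 0. Their spread is estimated over all 9 arrays, so it includes wild-type NSC, where the members' median log2 SD was 1.24. It was 0.35 in glioma stem cells and 0.57 in Nf1-null NSC. Fitted without the wild-type arrays, 0 of 39 passed, where 0.0385% of all genes were higher.

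**Figure D4:**
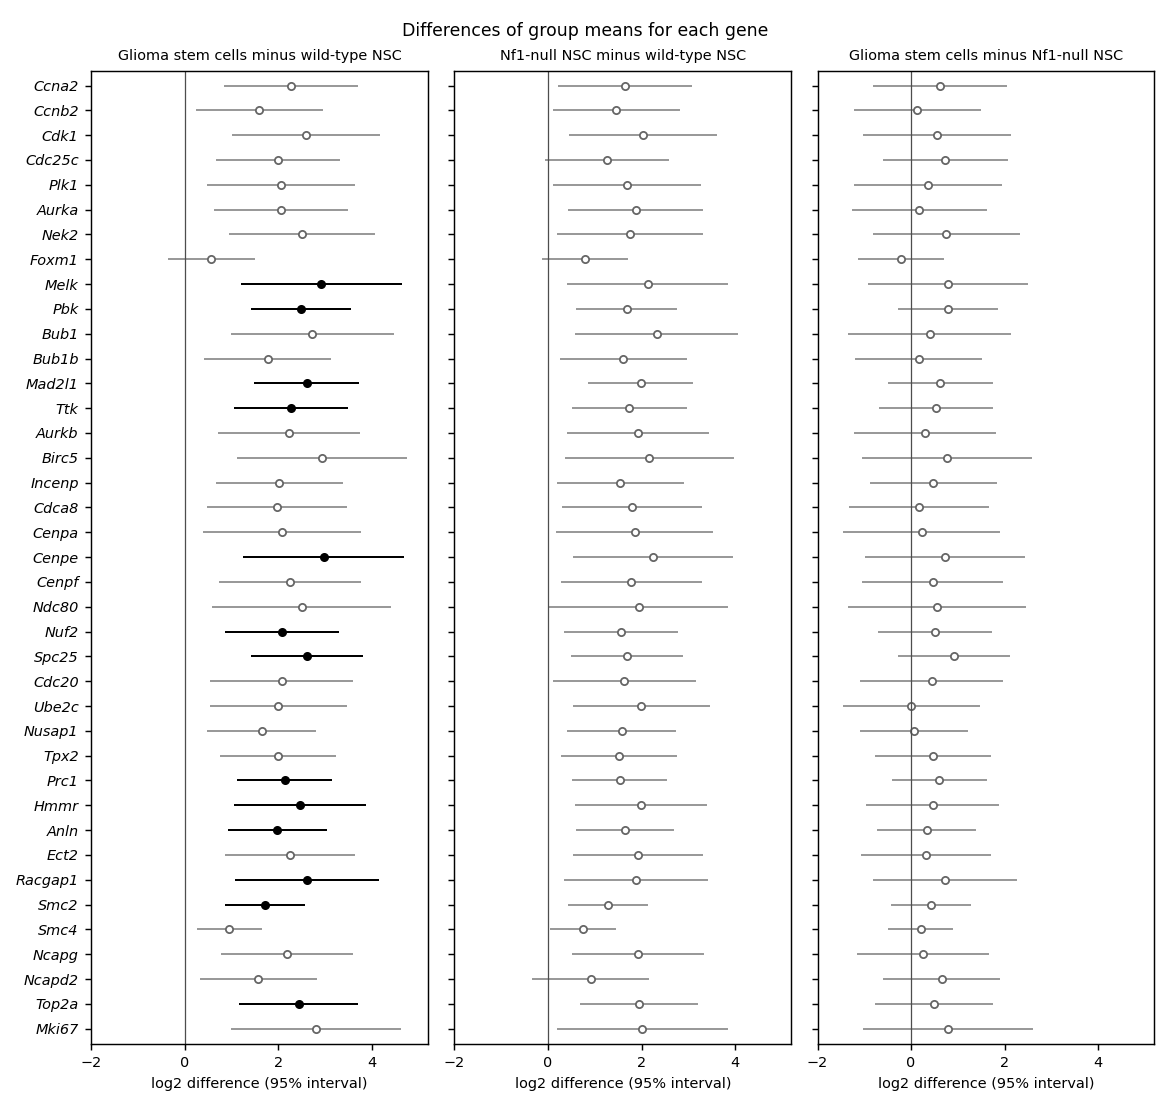
Log2 difference of group means with its 95% interval for each of the 39 genes in 3 comparisons; filled black points passed an adjusted p of 0.05 over all genes in limma, open points did not. In glioma stem cells minus wild-type NSC 13 points are filled, and in the other panels 0 are.

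Among the 10 measured genes of mitotic entry, 2 rose in glioma stem cells over wild-type NSC, 8 did not pass, and all 10 were positive. For this and the role groups below, 3.46% of all genes rose in the same fit. Cdk1, the kinase that starts mitosis, had signals of 15252, 9669.7 and 10087 in glioma stem cells and 13282, 6813 and 5148 in Nf1-null NSC, against 5179, 795 and 1671 in wild-type NSC. Its level in wild-type NSC array 1 lay just above the lowest Nf1-null array, and every glioma array exceeded every wild-type array. The difference was 2.58 (SE 0.67, adjusted p = 0.0538 in limma) for glioma stem cells and 2.03 (SE 0.67) for Nf1-null NSC. Plk1, a kinase of centrosome maturation and mitotic entry, had 4007, 1928 and 1998 in glioma stem cells and 3161, 1477 and 1574 in Nf1-null NSC, against 1652, 268 and 486 in wild-type NSC, and wild-type NSC array 1 lay above Nf1-null NSC arrays 2 and 3. Aurka, the kinase that matures centrosomes and activates Plk1, had 2976, 1871 and 1831 in glioma stem cells and 2868, 1730.0 and 1417 in Nf1-null NSC, against 1295, 222 and 492 in wild-type NSC, where even the highest array lay below the other groups. Cdc25c, a phosphatase that removes the brake on Cdk1, had 1695, 1015 and 856 in glioma stem cells and 1018, 535 and 588 in Nf1-null NSC, against 599.7, 129.6 and 298 in wild-type NSC. It is one of 2 members below the median brightness of all genes, and its Nf1-null and wild-type arrays overlapped.

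Pbk and Melk were the entry genes that passed. Pbk, a mitotic kinase that binds PDZ domains, had 16967, 13294 and 14149 in glioma stem cells and 10592, 9067 and 6368 in Nf1-null NSC, against 5019, 1336 and 2760.1 in wild-type NSC, and no group overlapped another. It rose 5.56-fold relative to wild-type NSC (log2 2.48, SE 0.45, adjusted p = 0.0230 in limma). Melk, a kinase of proliferating progenitors, had 4096, 2711 and 2675 in glioma stem cells and 2912, 1259.8 and 1579 in Nf1-null NSC, against 1036, 124 and 534 in wild-type NSC. Its highest and lowest arrays differed 33.1-fold, and it rose 7.55-fold relative to wild-type NSC (log2 2.92, SE 0.73, adjusted p = 0.0488 in limma). Of the remaining entry genes, Ccna2 (cyclin A2), Ccnb2 (cyclin B2) and Nek2 (a kinase that separates centrosomes) ranged over 12.2-fold, 10.3-fold and 18.4-fold between lowest and highest array, and their differences from wild-type NSC were 2.27, 1.59 and 2.51 in glioma stem cells (log2).

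Foxm1, the transcription factor that activates many of the other members, was the one that least followed them. It had signals of 590.2, 466 and 556 in glioma stem cells and 625, 636 and 608 in Nf1-null NSC, against 661, 353 and 199.7 in wild-type NSC, so the highest array of all was wild-type NSC array 1. Its differences from wild-type NSC were 0.57 (SE 0.39) in glioma stem cells and 0.79 (SE 0.39) in Nf1-null NSC, the smallest of the 39 in the first comparison. Other probe sets of Foxm1 were dimmer and gave other values. One gave a log2 difference of 3.71 of glioma stem cells from wild-type NSC, with an adjusted p of 0.0335 in limma over all probe sets. The others gave 2.23 and -1.50 without passing, the last at a mean log2 signal of 3.95, near the bottom of the array's range.

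Of the 4 spindle checkpoint genes, all positive against wild-type NSC in both comparisons, 2 rose in glioma stem cells over wild-type NSC. Mad2l1 encodes the Mad2 protein that binds Cdc20 while kinetochores are unattached; it had 11807, 7242 and 7872 in glioma stem cells and 8499.7, 5009 and 4310.3 in Nf1-null NSC, against 2835, 834 and 1263 in wild-type NSC. The wild-type arrays lay below all others, and Mad2l1 rose 6.08-fold in glioma stem cells (log2 2.60, SE 0.48, adjusted p = 0.0230 in limma). It also had the smallest adjusted p of the members between the NSC groups (log2 1.98, SE 0.48, adjusted p = 0.150), without passing. Ttk, the Mps1 kinase that starts checkpoint signalling, had 3711, 2206 and 2362 in glioma stem cells and 2857, 1711 and 1322 in Nf1-null NSC, against 1128, 292 and 524 in wild-type NSC. It rose 4.82-fold in glioma stem cells (log2 2.27, SE 0.52, adjusted p = 0.0374 in limma), with no overlap between any wild-type array and the other groups. Bub1, a kinetochore kinase of the checkpoint, had 6313, 4102 and 4273 in glioma stem cells and 5734, 3793 and 2227 in Nf1-null NSC, against 2281, 261 and 641 in wild-type NSC. It had the largest difference of the 39 between Nf1-null and wild-type NSC (2.33, SE 0.74), but wild-type NSC array 1 lay above Nf1-null NSC array 3. Bub1b, which encodes the BubR1 part of the mitotic checkpoint complex, had 3567, 1723 and 1866 in glioma stem cells and 3534, 1675 and 1386 in Nf1-null NSC, against 1264, 323 and 703 in wild-type NSC, again without overlap of wild-type NSC with the others.

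The chromosomal passenger complex corrects faulty attachments and guides cell division, and 0 of its 4 genes passed, with all 4 positive in each comparison and all 4 at an unadjusted p under 0.05 in limma against wild-type NSC. Aurkb, its kinase, had 2709, 1385 and 1369 in glioma stem cells and 2267, 956 and 1264 in Nf1-null NSC, against 945, 171 and 309 in wild-type NSC, where array 1 lay just under the lowest Nf1-null array. Birc5, which encodes survivin, the subunit that brings the complex to centromeres, had 10150.2, 6377 and 6592 in glioma stem cells and 8436, 3669.9 and 2805 in Nf1-null NSC, against 3207, 369 and 804 in wild-type NSC, with wild-type NSC array 1 above Nf1-null NSC array 3. Its arrays spanned 27.5-fold, and its difference of 2.93 (SE 0.77, adjusted p = 0.0560 in limma) was among the larger ones although it did not pass. Incenp, the scaffold of the complex, had 14037, 8251 and 7318 in glioma stem cells and 11429.7, 4956 and 5593 in Nf1-null NSC, against 4934, 1128 and 2279 in wild-type NSC, where array 1 again lay just under the lowest Nf1-null array. Cdca8, which encodes borealin, spanned 13.4-fold between its lowest and highest arrays. With the variance trend all 4 rose in glioma stem cells over wild-type NSC, against 6.16% of all genes.

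Of the 6 centromere and kinetochore genes 3 rose in glioma stem cells over wild-type NSC. Cenpe, a kinesin that carries chromosomes to the spindle equator, had 5472, 2945 and 3242 in glioma stem cells and 4558, 1820.5 and 1394 in Nf1-null NSC, against 1226, 179 and 495 in wild-type NSC, without overlap of wild-type NSC with the others. This was the largest difference of the 39, 7.82-fold (log2 2.97, SE 0.73, adjusted p = 0.0465 in limma). Ndc80, Nuf2 and Spc25 encode subunits of 1 complex, the one that grips microtubules. Spc25 had 9377, 7894 and 9299 in glioma stem cells and 6842, 4388 and 3424 in Nf1-null NSC, against 3069.5, 712 and 1387 in wild-type NSC, and the 3 groups did not overlap. It rose 6.10-fold relative to wild-type NSC (log2 2.61, SE 0.51, adjusted p = 0.0268 in limma), and had the largest difference of the 39 between glioma stem cells and Nf1-null NSC, 0.91 (SE 0.51, adjusted p = 0.423). Nuf2 had 5909.6, 6083 and 6124 in glioma stem cells and 6318, 3534 and 3371 in Nf1-null NSC, against 3158, 707 and 1307 in wild-type NSC, and rose 4.22-fold over wild-type NSC (adjusted p = 0.0475 in limma). Ndc80 had 1672, 1500.2 and 1316 in glioma stem cells and 1510.5, 1279 and 533 in Nf1-null NSC, against 939, 85.4 and 226 in wild-type NSC. Wild-type NSC array 1 lay above Nf1-null NSC array 3, and the SE of its differences was the largest of the 39 (0.81).

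The other kinetochore genes did not pass. Cenpa, the centromeric histone H3 variant, had 9223, 5194 and 5145 in glioma stem cells and 9669.9, 3883 and 4113 in Nf1-null NSC, against 4118, 561 and 1418 in wild-type NSC. Cenpf, a large kinetochore protein that accumulates before mitosis, had 10874, 5191 and 6105 in glioma stem cells and 8192, 4420.2 and 3632 in Nf1-null NSC, against 3758, 675 and 1269 in wild-type NSC. In both genes wild-type NSC array 1 overlapped the Nf1-null arrays and no glioma array overlapped wild-type NSC.

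The triggers of mitotic exit, Cdc20 and Ube2c, were both positive against wild-type NSC without passing in limma, each at an unadjusted p under 0.05 in both comparisons. Cdc20, which activates the anaphase-promoting complex and whose promoter is printed above, had 24404, 14418 and 14261 in glioma stem cells and 19614, 10254 and 10067 in Nf1-null NSC, against 10914, 1695 and 3678 in wild-type NSC, where array 1 lay above Nf1-null NSC arrays 2 and 3. Ube2c, the E2 enzyme that works with that complex, had 18072, 10524 and 9637 in glioma stem cells and 17486, 12924 and 8037 in Nf1-null NSC, against 7895, 1467 and 2474 in wild-type NSC, where every array lay below the others. Ube2c had nearly the same mean log2 signal in both mutant groups, with a difference of 0.00 (SE 0.62), whereas Cdc20 differed by 0.44 (SE 0.65) between them.

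In the spindle group 2 of 4 genes rose in glioma stem cells over wild-type NSC. Prc1, which bundles microtubules at the spindle midzone, had 7300.4, 5300.4 and 5764 in glioma stem cells and 5528, 3912 and 2956 in Nf1-null NSC, against 2692, 957 and 1018 in wild-type NSC. It rose 4.40-fold (log2 2.14, SE 0.43, adjusted p = 0.0281 in limma). Hmmr, a spindle pole protein, had 6811, 4385 and 4560.5 in glioma stem cells and 5371, 3485 and 2799 in Nf1-null NSC, against 2415, 422 and 808 in wild-type NSC, and rose 5.49-fold (adjusted p = 0.0455 in limma). In Prc1 and Hmmr every wild-type array lay below every other array. Tpx2, which activates Aurora A on the spindle, had 4738, 3349 and 3563 in glioma stem cells and 4264, 2378 and 2081 in Nf1-null NSC, against 2136, 507 and 833 in wild-type NSC, with wild-type NSC array 1 above the lowest Nf1-null array. Nusap1, a microtubule-bundling protein, spanned 7.56-fold over the arrays and had the difference nearest to 0 between glioma stem cells and Nf1-null NSC after Ube2c (0.06, SE 0.49).

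Cytokinesis genes Anln and Racgap1 rose in glioma stem cells over wild-type NSC, and Ect2 did not pass. Anln encodes anillin, a scaffold of the contractile ring, and had 6020.5, 4710.2 and 5538 in glioma stem cells and 5869.8, 4587 and 2928 in Nf1-null NSC, against 2687, 832 and 1148 in wild-type NSC. Its rise was 3.94-fold (log2 1.98, SE 0.45, adjusted p = 0.0366 in limma). Racgap1, part of the centralspindlin complex, had 5524, 3859.6 and 3247 in glioma stem cells and 4639.5, 1897 and 1738 in Nf1-null NSC, against 1824, 362 and 456 in wild-type NSC, and rose 6.12-fold (adjusted p = 0.0487 in limma). Ect2, the exchange factor that activates RhoA at the division plane, had 6866, 6236 and 5737 in glioma stem cells and 7491, 4624 and 3636 in Nf1-null NSC, against 3014, 526 and 1474 in wild-type NSC. For Anln and Ect2 the wild-type arrays did not overlap either other group, and for Racgap1 wild-type NSC array 1 lay above Nf1-null NSC array 3.

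Among chromosome genes, Top2a and Smc2 rose in glioma stem cells over wild-type NSC and 4 of 6 did not pass. Top2a, the topoisomerase that untangles sister chromatids, had 23559, 16468 and 17166 in glioma stem cells and 19489.9, 13078 and 9567 in Nf1-null NSC, against 7889, 1747 and 3090.4 in wild-type NSC. It rose 5.39-fold (log2 2.43, SE 0.53, adjusted p = 0.0343 in limma), with wild-type NSC below every other array. Mki67 had 25120.4, 16698 and 17637 in glioma stem cells and 19172, 8110.2 and 9277 in Nf1-null NSC, against 8971, 887 and 2718 in wild-type NSC. Its lowest and highest arrays lay 28.3-fold apart, and its difference of 2.81 (SE 0.77, adjusted p = 0.0644 in limma) did not pass. Wild-type NSC array 1 exceeded Nf1-null NSC array 2 in Mki67.

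Of the condensin subunits, Smc2, Smc4 and Ncapd2 had differences below the median of the 39. Smc2, a core condensin ATPase, had 14884, 11119.6 and 11672 in glioma stem cells and 12095, 10464 and 6397 in Nf1-null NSC, against 6227, 2903 and 3073 in wild-type NSC, and rose 3.26-fold (log2 1.71, SE 0.36, adjusted p = 0.0315 in limma). Smc4, its partner, had 15994, 10988 and 12129.8 in glioma stem cells and 14078, 12452 and 7979 in Nf1-null NSC, against 8768, 6407 and 5228 in wild-type NSC. Its difference of 0.75 (SE 0.29) was the smallest of the 39 between the NSC groups, and its 3.06-fold span was the narrowest. In the fit over all probe sets 2 dimmer Smc4 probe sets gave larger differences of glioma stem cells from wild-type NSC, 1.81 and 1.73, and both rose there (adjusted p = 0.0400 and 0.0335 in limma), so the brightest probe set gives the lowest estimate. Ncapd2, a regulatory condensin subunit, had 6472, 3834 and 3674 in glioma stem cells and 4966, 1798 and 2636 in Nf1-null NSC, against 2682, 799 and 1636 in wild-type NSC, and Nf1-null NSC arrays 2 and 3 lay below wild-type NSC array 1. Ncapg, another condensin subunit, spanned 13.6-fold.

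Probe sets not used to represent a member were mostly positive too. There were 50 of them, for 27 of the genes. Of these, 48 were positive in glioma stem cells over wild-type NSC, 45 in Nf1-null relative to wild-type NSC and 46 in glioma stem cells relative to Nf1-null NSC. All of the 20 above the median brightness were positive against wild-type NSC in both comparisons. Of all 34945 probe sets with 1 symbol, 46.5%, 46.1% and 48.7% were positive in these comparisons. In limma over all of these, 13 of the 50 rose in glioma stem cells over wild-type NSC and 0 fell, where 3.11% of all probe sets rose.

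Other genes of the pathway were taken from lists of established mitosis genes. In the same fits 3.46% of all genes rose in glioma stem cells over wild-type NSC. With the replicate block, fitted over all 9 arrays, and the trend 3.25% rose in Nf1-null relative to wild-type NSC. Between the NSC groups 0 of 18193 genes passed in limma, and 3048 had an unadjusted p under 0.05 in either direction. Of 37 other mitotic entry and spindle genes 34 were positive in glioma stem cells over wild-type NSC, with a median of 3.23-fold; 11 rose and 0 fell. The 3 with the smallest p were Wee1, the kinase that restrains Cdk1 (2.98-fold), Mastl, the Greatwall kinase that keeps mitotic phosphorylation up (3.24-fold), and Stil, needed for centriole duplication (4.11-fold). Between the NSC groups 36 of 37 were positive, with a median of 2.39-fold; 0 passed in limma, 22 had an unadjusted p under 0.05, and 20 rose with the replicate block and the trend. Of 34 other kinetochore and checkpoint genes 33 were positive in glioma stem cells over wild-type NSC, with a median of 2.99-fold; 13 rose, led by Oip5, which helps to load the centromeric histone (3.53-fold, adjusted p = 0.00987 in limma). The 1 that fell was Mad2l2, a paralogue of Mad2l1 known for its part in DNA repair and translesion synthesis (-1.68 on the log2 scale, SE 0.37, adjusted p = 0.0348 in limma). Between the NSC groups 31 of 34 were positive, with a median of 2.29-fold; 0 passed in limma, 19 had an unadjusted p under 0.05, and 16 rose with the replicate block and the trend.

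Genes of the anaphase-promoting complex and cohesin, which most cells keep outside mitosis, had a median close to the wild-type level. Over 30 genes of these complexes and further condensin parts, the median was 1.15-fold in glioma stem cells over wild-type NSC and 1.09-fold in Nf1-null relative to wild-type NSC. Of the 30, 6 rose in glioma stem cells, among them the condensin II genes Ncapg2 (4.58-fold, adjusted p = 0.00674 in limma) and Ncapd3 (1.80-fold) and Ube2s, the E2 enzyme that extends ubiquitin chains for the anaphase-promoting complex (2.68-fold). The 12 negative genes did not pass. In the same fit 3.46% of all genes rose, which holds for the DNA replication genes below too. DNA replication genes, which act in S phase, had a median like that of the other mitosis lists: 47 of 48 were positive in glioma stem cells over wild-type NSC, with a median of 3.19-fold, and 28 rose. Cdt1, a replication licensing factor, rose 9.48-fold (adjusted p = 0.0170 in limma). Between the NSC groups 46 of 48 were positive, with a median of 2.44-fold, and 0 passed in limma, where 0 of 18193 genes did. An unadjusted p under 0.05 was found for 37 of the 48, and for 3048 of 18193 genes in either direction. With the replicate block and the trend 35 rose, against 3.25% of all genes. The difference between these lists and the 39 genes was not tested.

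**Figure D5:**
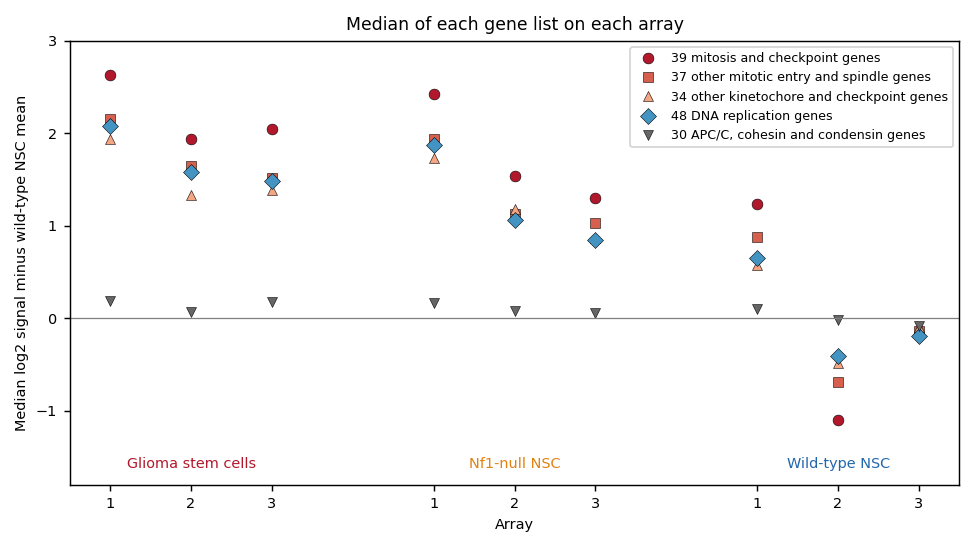
Median log2 signal of the 39 genes and of 4 other lists on each array, relative to the wild-type NSC mean of each gene. The 39 genes run from -1.10 on wild-type NSC array 2 to 2.63 on glioma stem cell array 1, while 30 genes of the anaphase-promoting complex, cohesin and condensin stay between -0.09 and 0.18.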

How the data were processed

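The 9 arrays were Affymetrix Mouse 430 2.0 arrays hybridised with biotinylated cRNA made from 100 ng RNA, per the labels. The deposited values are linear intensities per probe set, scaled by the authors to a 2% trimmed mean of 1500 on every array as the values show; the software is not named in the sources used. Array medians lay between 264.7 and 287.4, and the number of arrays limits the precision. Of 45101 probe sets, 64 controls, 932 with several symbols and 9160 with none were left out. The brightest probe set represented each of 18193 genes. Values were taken as log2(signal + 1), and the 3 group means were fitted over all genes and 9 arrays in limma 3.58.1 (R 4.3.3), two-sided, with Benjamini-Hochberg adjustment and no mean-variance trend. The fit was also run on simulated data with independent noise of equal spread in the 3 groups. The members' spread differed between groups, so that run does not bear on their calls. A trend, a replicate block, other scalings, filters and pseudocounts, and leaving out each array were alternatives. The members and gene lists were chosen with earlier results of these data known. The genes given array by array were named by role, plus those that passed and the extremes of each comparison; of each other list, up to 3 genes with the smallest p were eligible, and Mad2l2 is also named as the only one that fell.

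Same-numbered arrays of Nf1-null and wild-type NSC deviated together from their group means across the 9097 brighter genes (correlations 0.64, 0.24 and 0.59), so the numbers were read as pairs there; this pairing comes from the data, not the labels. The correlations were 0.24, 0.05 and 0.20 for glioma stem cells and wild-type NSC, which came from different mice and were not read as paired. They were 0.30, 0.12 and 0.11 for glioma stem cells and Nf1-null NSC, also not read as paired. The NSC pair numbered 2 thus stands no clearer than arrays numbered 1 of these unpaired groups.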

Additional observations from a re-analysis of the deposited data

How the results depend on the processing

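For glioma stem cells relative to wild-type NSC, 13 of 39 members passed. Shares in parentheses are of all genes that rose in the same fit (3.46% where 13 passed). The count was 20 with a pseudocount of 16 (4.08%), 29 without the dimmest 25% of genes (7.26%), 36 of 37 among the brighter genes (11.4%), 37 with the variance trend (6.16%), 37 with robust moderation too (6.34%), 35 with the replicate block (3.99%), 37 with the block among the brighter genes (14.4%), 38 with the block and the trend (7.93%), and 1 in a fit of the 6 arrays alone (2.2%). It was 13 under quantile normalization (4.07%), 15 after a median shift (4.57%) and 12 with the mean of all probe sets (2.58%). Leaving out each array gave 0 to 34 (0.385% to 3.84%), and 14 to 38 with the trend (2.84% to 6.58%). With the trend it was 38 without wild-type NSC array 1 (5%). It was 36, 32 and 34 without Nf1-null NSC arrays 1, 2 and 3 (5.73%, 6.52% and 6.16%). In Nf1-null against wild-type NSC 0 passed (0%). The count was 1 among the brighter genes (2.29%), 1 with the trend (1.06%), 1 with the trend and robust moderation (1.2%), 0 with the block alone (0%), 36 with the block among the brighter genes (6.88%), 36 with the block and the trend (3.25%), and 36 with both in the 6 NSC arrays (3.25%). Leaving out each array gave 0 each time (0% to 0.0055%), and 0 to 34 with the trend (0.0165% to 2.13%). With the trend it was 34 without wild-type NSC array 1 (1.66%), 7 without Nf1-null NSC array 3 (2.13%) and 1 without glioma stem cell array 1 (1.36%). In glioma stem cells against Nf1-null NSC 0 passed under every alternative. The share of genes tested that were higher ran from 0.0385% in the 6 arrays alone to 4.96% with the block among the brighter genes. Small uncalled differences changed sign. With the mean of all probe sets Bub1b was -0.21 and Foxm1 0.28 (log2). Leaving out each array in turn, the values ran from -0.050 to 0.47 for Aurka, -0.023 to 0.65 for Aurkb, -0.17 to 0.57 for Bub1b, -0.087 to 0.48 for Ccnb2, -0.17 to 0.49 for Cdca8, -0.054 to 0.65 for Cenpa, -0.051 to 0.61 for Ncapg, -0.20 to 0.35 for Nusap1, -0.041 to 0.37 for Smc4 and -0.30 to 0.26 for Ube2c. The negative values arose in 3 omissions and were the same with the trend. Without Nf1-null NSC array 2 they were -0.087 for Ccnb2, -0.0085 for Cenpa and -0.039 for Nusap1. Without Nf1-null NSC array 3 they were -0.039 for Aurka, -0.11 for Bub1b, -0.11 for Cdca8, -0.13 for Nusap1, -0.051 for Ncapg, -0.041 for Smc4 and -0.30 for Ube2c. Without glioma stem cell array 1 they included -0.016 for Ccnb2 and -0.28 for Ube2c. The cause was not tested. The median replicate spread (log2 SD) was 1.12 in the dimmest of 4 brightness bins and 0.20 in the brightest. Among members it was 1.24 in wild-type NSC, and the part of either in the counts was not tested.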

Other observations

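The promoter motifs were also counted in the other lists over the whole window, and the difference from the 31 members was not tested. TTTGAA on either strand was in the window of 16 of 30 other mitotic entry and spindle genes, 11 of 30 other kinetochore and checkpoint genes, 7 of 27 genes of the anaphase-promoting complex, cohesin and condensin, and 6 of 39 DNA replication genes (15.4%). The replication share lay near that of all genes on the arrays with a window (15.7%). CCAAT was in 20 of 30, 20 of 30, 11 of 27 and 22 of 39 genes of these lists, against 42.0% of genes on the arrays with a window. Within 50 bases of the start CCAAT was in 16 of the 31 members (51.6%) and in 16 of 30 other kinetochore and checkpoint genes (53.3%). Of genes on the arrays with a window 15.9% held it there. In Nf1-null relative to wild-type NSC, members with TTTGAA had a median log2 difference of 1.80 and those without it 2.05.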
